A study of Homo sapiens with 16 samples.

Results

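The comparison described here asks whether doxycycline moved a gene differently in 2 MDA-MB-231 lines, and which of the lines moved it. All 16 libraries of the series enter it, 4 in each of 4 groups. For every gene the doxycycline effect in the shScramble line (log2 of the level with doxycycline over the level without) was subtracted from the doxycycline effect in the shAKAP2 line, and that difference was tested as the interaction term of a 2 by 2 model. The difference is called the line difference below: above 0 the gene went up more, or down less, in shAKAP2 cells. Of 57500 genes in the count table, 15566 had enough counts to be tested.

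MDA-MB-231 is a human triple-negative breast cancer line, and every group is made of these cells. The shScramble line carries a scrambled control hairpin and the shAKAP2 line a hairpin against AKAP2, each from a promoter that doxycycline switches on. The groups are shScramble cells without and with doxycycline and shAKAP2 cells without and with doxycycline. The sources used here do not give the doxycycline dose, the treatment time, the hairpin sequences or the origin of the lines (clone or pool). Each hairpin stands in 1 line, so a hairpin and the line that carries it cannot be told apart, and the drug and the scrambled hairpin are switched on together in the control line, where their parts cannot be told apart either. Replicates are labelled biological, with no word on separate cultures, so p-values measure only the spread between these libraries, which may be technical.

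A short hairpin RNA is cut into a small RNA that guides silencing of transcripts it pairs with, fully or through its seed, a short stretch near its 5′ end. Doxycycline is also an antibiotic that acts on bacterial and mitochondrial ribosomes, so cells can respond to the drug without any hairpin. A control line under the same drug therefore measures what the drug and its own hairpin do together, and an interaction term subtracts that. Anything particular to the control line or its hairpin thus enters the difference with its sign reversed. The protein made from AKAP2 anchors protein kinase A close to its substrates, and the title of the series places it at focal adhesions, the sites where cells grip the matrix.

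Libraries held 24482997 to 37472525 counts. Both shScramble replicate 1 libraries stood apart: their root mean square log2 distance from the other 3 libraries of their group was 0.453 and 0.478, against 0.227 to 0.313 for the other 14 libraries. Results that rest on the shScramble line are given with and without that pair below. As a check of the label, 18 mesenchymal genes of MDA-MB-231 had a summed level of 7554 to 8690.4 CPM (counts scaled to library size) in the libraries. For comparison, 20 luminal epithelial genes summed to 1113 to 1767 CPM, and the members that carry this sum are not reported here.

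AKAP2 itself, the targeted gene (chr9:110048598-110172512, plus strand, GRCh38), moved in the shAKAP2 line. It stood at 1.48, 0.959, 1.002 and 1.24 CPM without and 0.858, 1.60, 2.19 and 2.38 CPM with doxycycline in the shScramble line. In the shAKAP2 line it stood at 1.43, 1.38, 1.41 and 1.45 CPM without and 0.124, 0, 0.0376 and 0 CPM with doxycycline. Induced shAKAP2 libraries were at or near 0 and all 12 others between 0.858 and 2.38 CPM. The line difference was -5.65 (SE 0.70, adjusted p = 8.48e-06), made up of -5.06 in shAKAP2 and 0.58 in shScramble (adjusted p = 0.71), and its size rests on the few counts left in induced shAKAP2. Since 85.8% of its exon sequence also belongs to PALM2-AKAP2, a readthrough gene on the same strand, its counts are uncertain.

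The line difference passed the test (adjusted p under 0.05) in 2802 genes, 18.0% of those tested. It was above 0 in 1172 genes (7.53%) and below 0 in 1630 (10.5%), a split that depends on scaling (1424 and 1474 with upper-quartile scaling). Among differences of at least 2-fold the split was 150 genes above 0 (0.964%) and 508 below (3.26%). At an unadjusted p under 0.05 there were 4646 genes (29.8%). The doxycycline effect within a line passed in 4405 genes in shAKAP2 (28.3%), 2032 up (13.1%) and 2373 down (15.2%), and in 168 in shScramble (1.08%), 87 up (0.559%) and 81 down (0.520%), and those calls were used to say which line moved. Of the 2802 genes, 2431 moved in shAKAP2 alone, 65 in shScramble alone, 50 in both lines in opposite directions and 11 in both in the same direction. In the other 245 neither line passed by itself.

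**Figure D1:**
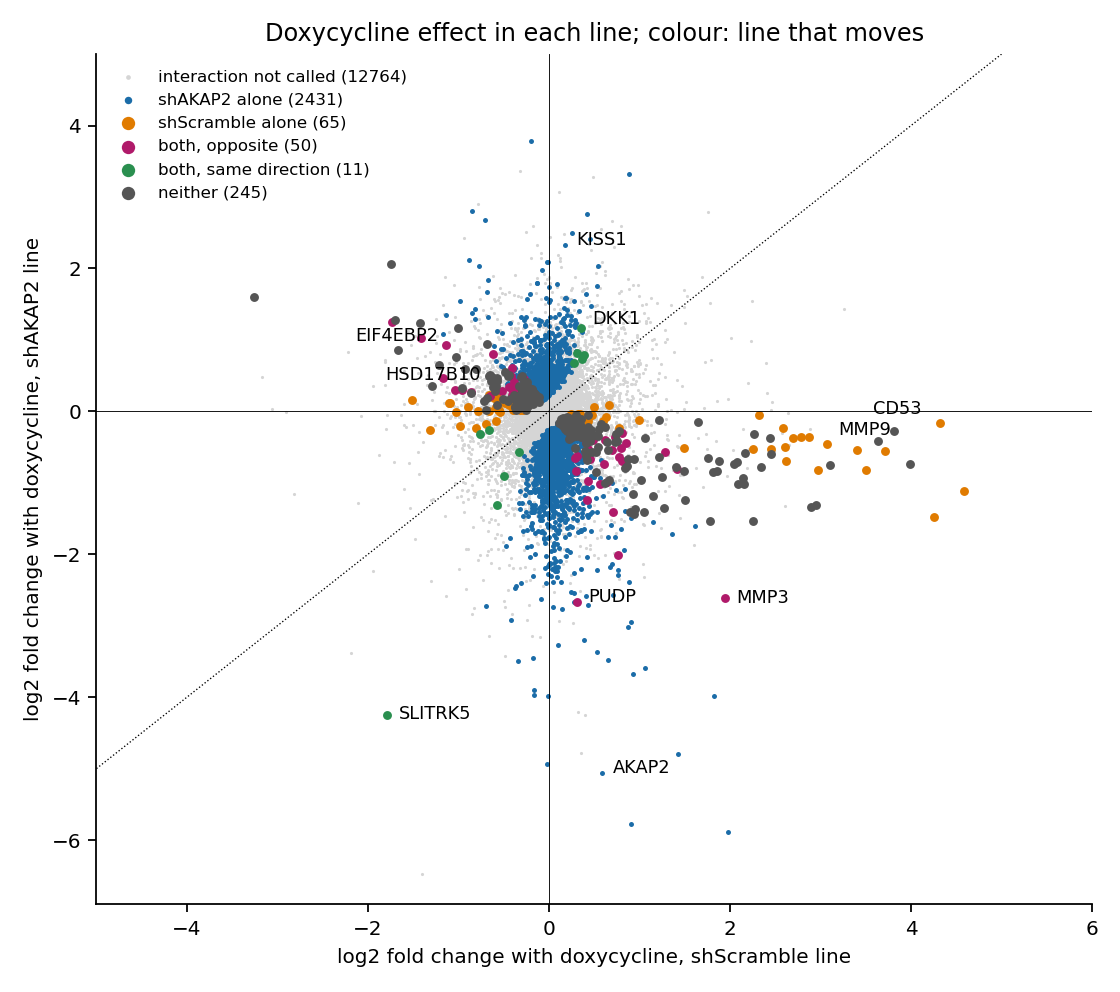
Each point is 1 of 15566 genes, placed by its log2 fold change with doxycycline in shScramble (horizontal) and in shAKAP2 (vertical), and coloured by the line that moves where the line difference was called. On the dotted diagonal both lines change alike. The 2431 genes that moved in shAKAP2 alone lie along the vertical axis, and the 32 genes below the diagonal that moved in shScramble alone reach far to the right.

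Where shAKAP2 alone moved, the shScramble effect was small. The 996 genes above 0 had a median effect of 0.446 in shAKAP2 and -0.059 in shScramble, and the 1435 below 0 had medians of -0.662 and 0.059. The induced shAKAP2 group had the highest of the 4 group means in 929 of the 996 and the lowest in 1366 of the 1435. In 968 and 1392 of them the 4 shAKAP2 libraries with doxycycline did not overlap the 4 without it, which held for 36.5% of all genes tested. The genes were sorted by these same libraries. The small shScramble effect, the extreme means and the lack of overlap therefore follow largely from the sorting and are no separate support. Falls were the larger changes: 410 of the 1435 genes below 0 and 115 of the 996 above 0 had a line difference of at least 2-fold.

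KISS1, the precursor of kisspeptin and a suppressor of metastasis, rose in shAKAP2 alone. In shScramble it stood at 6.31, 6.57, 9.19 and 7.65 CPM without and 7.25, 10.36, 8.96 and 7.11 CPM with doxycycline. The shAKAP2 libraries held 1.02, 1.04, 1.90 and 1.06 CPM without and 5.64, 5.87, 7.44 and 6.08 CPM with doxycycline. The uninduced shAKAP2 libraries lay below the other 12, and induction brought KISS1 near the level of both shScramble groups. Its line difference was 2.14 (SE 0.28, adjusted p = 1.67e-05), with 2.32 in shAKAP2 and 0.18 in shScramble (adjusted p = 0.86).

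PANX2, a pannexin channel subunit, had the largest difference above 0 named by the rule. It stood at 2.17, 0.775, 1.86 and 0.988 CPM without and 0.351, 0.679, 0.587 and 1.45 CPM with doxycycline in shScramble and at 2.04, 2.34, 1.86 and 1.31 CPM without and 9.59, 8.83, 8.35 and 5.93 CPM with doxycycline in shAKAP2. All 4 induced shAKAP2 libraries lay above the other 12. The line difference was 3.01 (SE 0.50, adjusted p = 0.000228), made up of 2.12 in shAKAP2 and -0.89 in shScramble (adjusted p = 0.43). TMEM236, a membrane protein, showed the same order, with 10.6, 10.01, 10.9 and 7.58 CPM in induced shAKAP2 against 0.913 to 3.02 CPM in the other 12 libraries and a line difference of 2.25 (SE 0.40, adjusted p = 0.000476). SLC16A14, of the monocarboxylate transporter family, differed by 2.23 (SE 0.46, adjusted p = 0.0019) and the unconventional myosin gene MYO1D by 2.12 (SE 0.49, adjusted p = 0.0044). The antisense RNA PRKCQ-AS1 differed by 2.36 (SE 0.55, adjusted p = 0.0046) and the histone H3 gene HIST1H3H by 1.99 (SE 0.44, adjusted p = 0.0029). Part of these differences came from shScramble, where the effects were below 0 but not called. They were -0.85 for SLC16A14, -0.82 for MYO1D, -0.69 for PRKCQ-AS1 and -0.67 for HIST1H3H. In shAKAP2 the effects were 1.38, 1.30, 1.68 and 1.32 in the same order.

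PDE1C, a phosphodiesterase that breaks down cyclic nucleotides, rose from a low level in shAKAP2 only. It stood at 0, 0.346, 0.419 and 0.382 CPM without and 1.69, 0.513, 0.789 and 1.61 CPM with doxycycline in shAKAP2, and at 12.3, 12.8, 12.7 and 18.2 CPM without and 13.9, 13.2, 11.6 and 14.5 CPM with doxycycline in shScramble. Both shScramble groups lay far above both shAKAP2 groups, so the line difference of 2.05 (SE 0.55, adjusted p = 0.014) is between lines that start at different levels. With all genes that had a count in the test, its adjusted p was 0.0595.

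MMP1, an interstitial collagenase, fell in shAKAP2 alone. It stood at 34.0, 39.4, 83.2 and 62.1 CPM without and 39.6, 45.6, 67.6 and 42.6 CPM with doxycycline in shScramble. Its level in shAKAP2 was 16.02, 12.98, 18.4 and 10.1 CPM without and 1.15, 0.843, 1.32 and 0.549 CPM with doxycycline. Without doxycycline the shAKAP2 libraries were already lower than every shScramble library, and with it they were near 1 CPM. The line difference was -3.73 (SE 0.48, adjusted p = 8.13e-05), from -3.90 in shAKAP2 and -0.16 in shScramble (adjusted p = 0.93).

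HLA-DRA, the alpha chain of the MHC class II molecule HLA-DR, fell in shAKAP2 from 13.7, 14.3, 14.7 and 18.5 to 0.782, 0.770, 0.564 and 1.72 CPM. In shScramble it stood at 185, 64.6, 38.9 and 48.3 CPM without and 185, 56.9, 41.3 and 50.9 CPM with doxycycline, with replicate 1 far above the other 3 in both groups. The line difference was -3.97 (SE 0.97, adjusted p = 0.014), and limma-voom did not call it (adjusted p = 0.176). Its counts are also uncertain because MHC class II genes are close paralogs.

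The other 6 genes named here also fell in shAKAP2 alone. ZNF33B, a zinc finger gene, fell from 12.9, 12.5, 10.9 and 12.3 to 2.26, 1.61, 2.52 and 1.98 CPM, with 11.9 to 18.7 CPM in the 8 shScramble libraries and a line difference of -2.81 (SE 0.21, adjusted p = 7.43e-09). NTN4, a secreted netrin, fell from 3.56, 3.76, 4.60 and 4.805 to 0.823, 0.697, 0.977 and 0.403 CPM against 7.53 to 13.3 CPM in shScramble, a difference of -2.77 (SE 0.30, adjusted p = 1.33e-06). MAP2K6, a kinase that activates p38, differed by -2.91 (SE 0.47, adjusted p = 0.00018). MAOB, a monoamine oxidase of the outer mitochondrial membrane, differed by -2.95, the calpain gene CAPN11 by -2.99 and PRELP, a matrix proteoglycan, by -2.84. The shScramble effects, not called, were 0.28 for MAOB, 0.41 for CAPN11 and 0.70 for PRELP. In each of the 6 genes the 4 induced shAKAP2 libraries lay below the other 12.

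**Figure D2:**
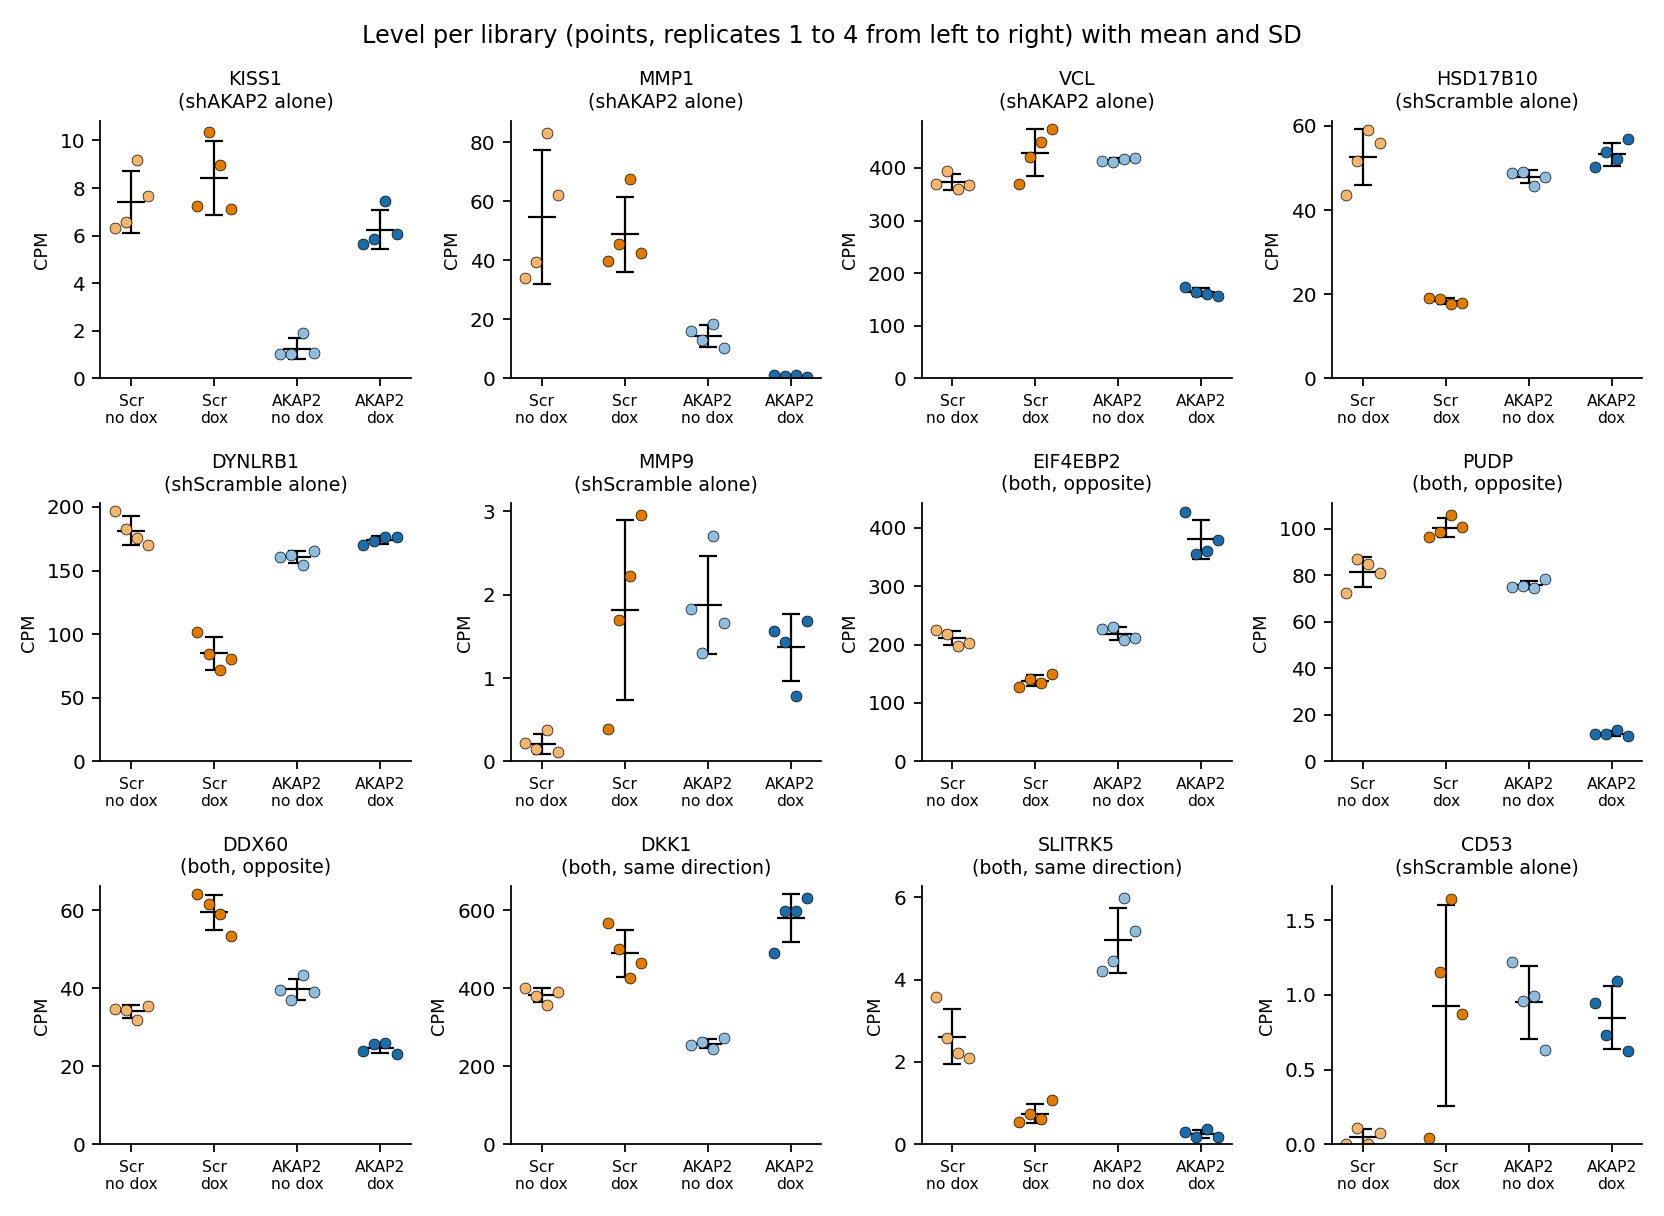
Level in CPM (vertical axis, from 0) of 12 genes in the 16 libraries, with the 4 groups along the horizontal axis, 1 point per library (replicates 1 to 4 from left to right), the group mean as a bar and the SD as whiskers. Titles name the line that moves. HSD17B10 and DYNLRB1 dip in induced shScramble alone, PUDP drops in induced shAKAP2, and in MMP9 and CD53 replicate 1 of induced shScramble sits close to the uninduced libraries.

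Where shScramble alone moved, 33 genes lay above 0 because they fell in shScramble, with a median effect of -0.565 there and 0.059 in shAKAP2. Induced shScramble had the lowest of the 4 group means in 31 of the 33. The doxycycline and no doxycycline libraries of shScramble did not overlap in 32 of the 33, against 4.43% of all genes tested. Here too the order of the groups and the lack of overlap follow largely from the sorting.

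HSD17B10, a mitochondrial dehydrogenase that is also a subunit of mitochondrial RNase P, had the largest difference of those named by the rule. It stood at 43.6, 51.7, 59.0 and 55.9 CPM without and 19.2, 18.9, 17.8 and 17.9 CPM with doxycycline in shScramble. The shAKAP2 line held 48.9, 49.1, 45.8 and 47.9 CPM without and 50.2, 53.9, 52.2 and 56.8 CPM with doxycycline. The 4 induced shScramble libraries lay below the other 12 and close to each other. The shScramble effect was -1.51 (SE 0.08, adjusted p = 1.51e-09), the shAKAP2 effect 0.15 (SE 0.08, adjusted p = 0.18) and the line difference 1.66 (SE 0.12, adjusted p = 4.1e-09).

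DYNLRB1, a light chain of the dynein motor, showed the same pattern. It stood at 197, 183, 176 and 170.3 CPM without and 102, 84.7, 72.1 and 80.4 CPM with doxycycline in shScramble and at 160.4, 162, 155 and 166 CPM without and 170.0, 173, 176 and 176 CPM with doxycycline in shAKAP2. Again 4 libraries were low and 12 were not, and the line difference was 1.21 (SE 0.11, adjusted p = 1.96e-07). NCEH1, a cholesterol ester hydrolase, fell from 228, 269, 328 and 317 to 89.6, 112, 132 and 124 CPM in shScramble (-1.32), with a difference of 1.06 (SE 0.15, adjusted p = 5.36e-05). It was also lower with doxycycline in shAKAP2, at 335 to 355 CPM without and 268 to 305 CPM with it. These did not overlap, but the effect was not called (-0.25, adjusted p = 0.085). EVI5L, which has a Rab GTPase-activating domain, fell from 30.1, 28.7, 35.2 and 29.4 to 12.1, 15.0, 15.7 and 17.7 CPM, with 29.5 to 35.6 CPM in shAKAP2 and a difference of 1.01 (SE 0.15, adjusted p = 4.6e-05). FAM239A differed by 1.22 (SE 0.37, adjusted p = 0.025), and 4 of the 16 fits that leave out 1 library did not call it (adjusted p up to 0.0721). The other 28 genes of this kind include MDM2, the ubiquitin ligase of p53 (0.59, SE 0.09, adjusted p = 0.000146), and FTO, an RNA demethylase (0.53, SE 0.11, adjusted p = 0.0014), both named after their values were seen.

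The 32 genes below 0 where shScramble alone moved rose in shScramble, with a median effect of 2.287 there and -0.236 in shAKAP2. Of the 32, 9 had a mean under 1 CPM over the 16 libraries, where the size of an effect rests on few counts. Among the 33 above 0 there were 0 such genes. Uninduced shScramble had the lowest group mean in 20 of the 32. Their values fell into 2 kinds. In 21 genes all 4 induced shScramble libraries lay above all 4 uninduced ones. In the other 11 the groups overlapped, in each case through replicate 1 of induced shScramble only, which lay within the uninduced range.

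PDGFRB, the beta receptor for platelet-derived growth factor, is of the first kind. It stood at 11.2, 10.1, 9.05 and 9.08 CPM without and 18.6, 16.4, 16.04 and 16.3 CPM with doxycycline in shScramble and at 5.84, 4.84, 5.63 and 7.92 CPM without and 6.13, 6.09, 4.62 and 3.81 CPM with doxycycline in shAKAP2. Induced shScramble was the highest group, without overlap, and the line difference was -1.01 (SE 0.23, adjusted p = 0.0036). ALPP, placental alkaline phosphatase, rose from 18.1, 13.9, 8.70 and 10.2 to 28.9, 25.9, 19.7 and 26.9 CPM in shScramble and had a difference of -1.11 (SE 0.27, adjusted p = 0.0071). GLIPR2 differed by -0.74 (SE 0.16, adjusted p = 0.0033) and MYO1F, an unconventional myosin of blood cells, by -2.01 (SE 0.44, adjusted p = 0.0029). ALPP shares 20.6% of its exonic bases with a gene on the other strand, and whether counting used strand is not given in the sources used here.

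MMP9, a gelatinase, had the largest difference of this group named by the rule. It stood at 0.215, 0.148, 0.380 and 0.110 CPM without and 0.390, 1.70, 2.23 and 2.95 CPM with doxycycline in shScramble, and at 1.83, 1.31, 2.70 and 1.67 CPM without and 1.56, 1.43, 0.789 and 1.68 CPM with doxycycline in shAKAP2. Replicate 1 of induced shScramble lay just above the uninduced libraries, and replicates 2 to 4 lay within or just above the range of the shAKAP2 libraries. Doxycycline raised it in shScramble by 3.07 (SE 0.51, adjusted p = 0.0026), and the line difference was -3.52 (SE 0.67, adjusted p = 0.000882). Of its exonic bases, 18.4% lie under a gene on the other strand.

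CD53, a tetraspanin of leukocytes, is of the second kind. It stood at 0, 0.111, 0 and 0.0732 CPM without and 0.0390, 1.16, 1.64 and 0.875 CPM with doxycycline in shScramble. Levels in shAKAP2 were 1.22, 0.960, 0.989 and 0.628 CPM without and 0.947, 0.733, 1.09 and 0.622 CPM with doxycycline. The 4 uninduced shScramble libraries and induced replicate 1 were at 0 to 0.111 CPM, while the other 11 libraries were at 0.622 to 1.64 CPM. The line difference was -4.48 (SE 1.05, adjusted p = 0.0048), from a shScramble effect of 4.32 and a shAKAP2 effect of -0.16 (adjusted p = 0.88).

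Some blood cell markers were among the called genes. Of 24 such markers, 17 were tested and 9 called (52.9%, against 18.0% of all genes tested), 1 above 0 and 8 below it. Of the 9, 4 moved in shScramble alone, 2 in shAKAP2 alone, 1 in both and 2 in neither. The member above 0 was LCP1, an actin-bundling plastin, named after its values were seen (0.91, SE 0.29, adjusted p = 0.036), with shAKAP2 alone moving. The median difference over the 17 was -1.929, against 0.003 over all genes tested, beside median effects of -0.461 in shAKAP2 and 1.313 in shScramble. Summed over the list, the level was 92.7 to 111.9 CPM in uninduced shScramble, 142 to 196 CPM in induced shScramble, 85.2 to 100.2 CPM in uninduced shAKAP2 and 64.4 to 93.8 CPM in induced shAKAP2. LAPTM5, a lysosomal membrane protein of blood cells, made up most of that sum, at 67.0, 91.9, 84.5 and 76.4 CPM without and 111, 163, 156 and 148 CPM with doxycycline in shScramble and 68.3, 68.4, 65.7 and 60.6 CPM without and 47.7, 53.3, 50.1 and 41.4 CPM with doxycycline in shAKAP2. The defining markers were far lower, and the following were chosen after their values were seen. PTPRC, which encodes CD45, stood at 0.403, 0.0738, 0.380 and 0.0732 CPM without and 0.390, 2.62, 1.60 and 1.37 CPM with doxycycline in shScramble and 0.476 to 2.21 CPM in shAKAP2. TYROBP, an adaptor of myeloid receptors, was at 0 in 2 of the 4 uninduced shScramble libraries and at most 0.465 CPM in any library. SPI1, a myeloid transcription factor, was at 0 in 3 shScramble libraries, induced replicate 1 among them, and at most 0.768 CPM elsewhere. CSF1R, the receptor for macrophage colony-stimulating factor, differed by -1.02 (SE 0.22, adjusted p = 0.0031), with a called fall of -0.67 in shAKAP2. In shScramble it stood at 5.27 to 6.63 CPM without and 7.12 to 8.63 CPM with doxycycline, a rise that was not called (0.35, adjusted p = 0.48). Over the whole list of 24, the libraries held counts of 16 to 22 of the markers. The part of blood cell transcripts in the MMP9, TNF, SPP1 and CXCL10 differences was not tested. In bulk RNA, more cells of a type and more RNA per cell cannot be told apart.

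Of 28 chemokine and cytokine genes tested, 1 had a difference above 0 and 7 below it (28.6%, against 18.0% of all genes tested), with a median of -0.903. TNF, the inflammatory cytokine, stood at 0.268, 0.148, 0.0691 and 0.0732 CPM without and 0.351, 0.917, 0.783 and 0.766 CPM with doxycycline in shScramble and at 1.19, 0.999, 1.29 and 0.901 CPM without and 0.823, 0.990, 0.489 and 0.732 CPM with doxycycline in shAKAP2. The uninduced shScramble libraries were the lowest 4, and replicate 1 was the lowest of the induced shScramble libraries. Its difference was -2.78 (SE 0.62, adjusted p = 0.0036), with shScramble alone moving. CXCL10, a chemokine induced by interferon, named after its values were seen, stood at 2.25, 0.812, 0.725 and 0.732 CPM without and 1.09, 7.98, 12.4 and 10.8 CPM with doxycycline in shScramble against 6.39 to 12.2 CPM in the 8 shAKAP2 libraries. IL24 fell in shAKAP2 alone (-0.99, SE 0.22, adjusted p = 0.0038), and LIF, a cytokine of the interleukin 6 family, was the member above 0 (0.64, SE 0.12, adjusted p = 0.0011).

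Both lines moved in opposite directions in 50 genes, 21 with a difference above 0 and 29 below it. Induced shScramble was the lowest group in 20 of the 21 and the highest in 29 of the 29, and induced shAKAP2 the highest in 19 of the 21 and the lowest in 28 of the 29. Sorting by opposite effects makes such an order likely.

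EIF4EBP2, a repressor of cap-dependent translation, fell in shScramble and rose in shAKAP2. It stood at 226, 218, 198 and 203 CPM without and 127, 141, 135 and 149 CPM with doxycycline in shScramble. The shAKAP2 levels were 226, 229.7, 208 and 211 CPM without and 427, 355, 359.5 and 379 CPM with doxycycline. The uninduced groups overlapped each other, and the induced groups lay on either side of them. The effects were -0.61 (SE 0.07, adjusted p = 3.26e-05) and 0.80 (SE 0.07, adjusted p = 3.73e-08), and the line difference was 1.41 (SE 0.10, adjusted p = 4.5e-09).

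H2AFX, the histone variant that is phosphorylated at DNA breaks, stood at 76.1, 107, 116 and 90.6 CPM without and 36.2, 48.8, 45.3 and 42.2 CPM with doxycycline in shScramble and at 108, 102, 99.2 and 98.5 CPM without and 129.8, 148, 149 and 137 CPM with doxycycline in shAKAP2. Induced shScramble was the lowest group and induced shAKAP2 the highest, without overlap within either line. The difference was 1.64 (SE 0.15, adjusted p = 1.81e-07), and most of it came from shScramble (-1.18, against 0.47 in shAKAP2). LMLN, a metallopeptidase, differed by 1.34 (SE 0.15, adjusted p = 1.39e-06) and PRKAR2A-AS1, antisense to the gene of a protein kinase A regulatory subunit, by 2.06 (SE 0.38, adjusted p = 0.000655).

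PUDP, a pseudouridine phosphatase, had the smallest interaction p of the named genes. It stood at 72.5, 87.1, 84.8 and 81.2 CPM without and 96.7, 98.8, 106 and 101 CPM with doxycycline in shScramble. In shAKAP2 it stood at 74.8, 75.5, 74.7 and 78.3 CPM without and 11.8, 11.6, 13.3 and 11.1 CPM with doxycycline. The 4 induced shAKAP2 libraries were several fold below the other 12, and the induced shScramble libraries were the highest. The shAKAP2 effect of -2.66 made up most of the difference of -2.97 (SE 0.10, adjusted p = 1.49e-13), beside 0.31 (SE 0.07, adjusted p = 0.033) in shScramble.

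MMP3, stromelysin, stood at 0.403, 0.775, 0.691 and 0.659 CPM without and 0.896, 2.96, 2.78 and 3.03 CPM with doxycycline in shScramble and at 3.53, 2.11, 2.32 and 1.67 CPM without and 0.247, 0.110, 0.789 and 0.403 CPM with doxycycline in shAKAP2. It was high in uninduced shAKAP2 and in induced shScramble and low in the other groups, and replicate 1 was the lowest of the induced shScramble libraries. Its difference of -4.56 (SE 0.63, adjusted p = 3.22e-05) was the largest of the genes that moved in opposite directions and were named. CST7, the protease inhibitor cystatin F, differed by -2.77 (SE 0.20, adjusted p = 4.96e-09): it rose by 0.76 in shScramble and fell by 2.01 on the log2 scale in shAKAP2. PI16, a peptidase inhibitor, differed by -2.22 (SE 0.28, adjusted p = 1.03e-05), with the larger effect in shScramble (1.41, against -0.81).

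Both lines moved in the same direction, by different amounts, in 11 genes: AKIRIN1, ANKRD1, CREB3L2, CYR61, DKK1, EREG, FSTL1, KATNAL1, SLITRK5, TMEM245 and VEGFA. In 9 of them the shAKAP2 effect was the larger. DKK1, a secreted inhibitor of Wnt signalling, stood at 400.0, 379.9, 358 and 389 CPM without and 568, 499.9, 425 and 464 CPM with doxycycline in shScramble and at 253, 261, 244 and 273 CPM without and 489.5, 597, 598 and 632 CPM with doxycycline in shAKAP2. It rose in both lines, from a lower level in shAKAP2 and to a higher mean, and the difference was 0.81 (SE 0.12, adjusted p = 6.45e-05). SLITRK5, a neuronal membrane protein, stood at 3.57, 2.58, 2.21 and 2.09 CPM without and 0.546, 0.747, 0.626 and 1.07 CPM with doxycycline in shScramble and 4.21, 4.46, 5.97 and 5.19 CPM without and 0.288, 0.183, 0.376 and 0.183 CPM with doxycycline in shAKAP2. It fell in both lines without overlap, with log2 changes of -1.79 in shScramble and -4.25 in shAKAP2, a difference of -2.46 (SE 0.41, adjusted p = 0.000248).

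EREG, the ErbB ligand epiregulin, fell from 34.3 ± 5.11 to 23.1 ± 2.29 CPM in shScramble and from 49.9 ± 3.74 to 20.1 ± 2.41 CPM in shAKAP2 (SD, n = 4 each). Uninduced shAKAP2 was the highest group, the induced groups overlapped, and the difference was -0.74 (SE 0.15, adjusted p = 0.0021). KATNAL1, of the microtubule-severing katanins, fell more in shScramble (-0.76) than in shAKAP2 (-0.32), a difference of 0.44 (SE 0.11, adjusted p = 0.0067). TMEM245 rose in both, with a difference of 0.51 (SE 0.08, adjusted p = 0.000134). CREB3L2, a membrane-bound transcription factor, fell in both, and its difference of -0.40 (SE 0.12, adjusted p = 0.029) lost the call in 7 of the 16 fits that leave out 1 library (adjusted p up to 0.0715).

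In 245 genes the lines differed although neither passed alone, with effects of opposite sign in each of them. NELFA, a subunit of the negative elongation factor, had effects of -0.34 in shScramble and 0.21 in shAKAP2, neither called (adjusted p = 0.11 and 0.11), and a difference of 0.55 (SE 0.13, adjusted p = 0.0065). TPGS1, a subunit of tubulin polyglutamylase, differed by 1.39 (SE 0.33, adjusted p = 0.006). SAMD9L, an interferon-induced gene, differed by -0.61 (SE 0.14, adjusted p = 0.004) and EAF1, a partner of the elongation factor ELL, by -0.44 (SE 0.10, adjusted p = 0.0031). EAF1 shares 40.8% of its exonic bases with a gene on the other strand.

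Which line is said to move depends on the shScramble libraries, replicate 1 among them. Without both replicate 1 libraries the shScramble line had 1004 calls (6.45% of genes tested) in place of 168. The line difference then had 4826 (31.0%) in place of 2802. Of the 2802 genes, 2753 stayed called, each in the same direction. Of the 2431 genes that moved in shAKAP2 alone, 2175 still did, 188 then moved in both lines in opposite directions and 30 in both in the same direction. Of the 65 that moved in shScramble alone, 58 still did. The class where neither line passed kept 61 of its 245 genes, and 62 of them joined shScramble alone. All 111 genes named by the rule kept their call and direction in that fit. Leaving out 1 of the other shScramble libraries kept fewer genes in their class. Of the 65 in shScramble alone, 58 to 61 stayed called and 36 to 40 kept their class. The 50 that moved in opposite directions all stayed called, and 26 to 33 kept their class.

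**Figure D3:**
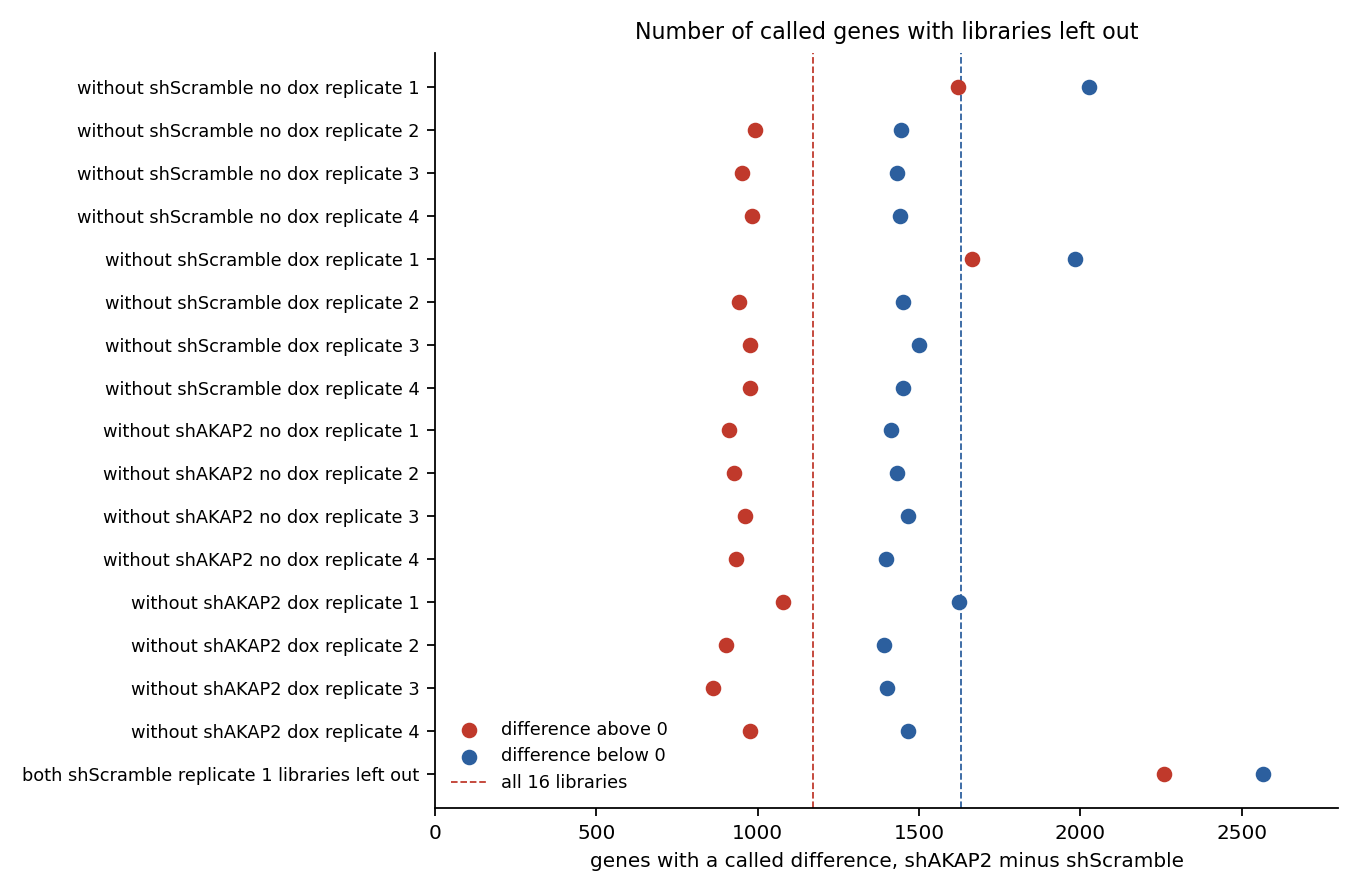
Number of genes with a called line difference (horizontal axis) when the library named on the vertical axis is left out, above 0 in red and below 0 in blue, with dashed lines at the counts from all 16 libraries (1172 and 1630). Leaving out shScramble replicate 1, with or without doxycycline, raises the total to 3647, and leaving out both gives 2261 above and 2565 below 0.

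Focal adhesion genes were called about as often as all genes tested. Of 38 scaffold and signalling genes, none had a difference above 0 and 7 had one below it (18.4%, against 18.0% of all genes), 6 of them with shAKAP2 alone moving. The median difference was -0.161. VCL, vinculin, which links integrin adhesions to actin, stood at 370.2, 395, 359.6 and 367 CPM without and 370.1, 422, 449 and 474 CPM with doxycycline in shScramble. The levels in shAKAP2 were 413, 411, 416 and 419.5 CPM without and 174, 164, 161 and 157 CPM with doxycycline. The induced shAKAP2 libraries were below the other 12 by a wide margin, and the difference was -1.54 (SE 0.09, adjusted p = 4.86e-10). PTK2, focal adhesion kinase, fell from 176, 179, 167 and 162 to 74.2, 68.1, 71.8 and 74.6 CPM in shAKAP2, a difference of -1.43 (SE 0.08, adjusted p = 2e-10). In shScramble it stood at 171 to 186 CPM without and 199 to 212 CPM with doxycycline, a rise that was not called (0.18, adjusted p = 0.17). RSU1, a partner of the PINCH adaptor, differed by -0.81 (SE 0.10, adjusted p = 8.38e-06). The other 4 called members were CAV1, CRK, DOCK1 and PTK2B, all below 0, and 31 members were not called.

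Of 21 integrin genes, 5 had a difference below 0 and none above it (23.8%, against 18.0% of all genes). The median difference was -0.763, beside median effects of -0.420 in shAKAP2 and 0.345 in shScramble. ITGB2, the leukocyte beta chain, rose in shScramble and fell in shAKAP2 (-1.86, SE 0.26, adjusted p = 3.11e-05). ITGA5, of the fibronectin receptor, differed by -0.76 (SE 0.12, adjusted p = 0.000169) and ITGB4, of the laminin receptor, by -0.96 (SE 0.16, adjusted p = 0.000338), each with shAKAP2 alone moving. Without both shScramble replicate 1 libraries, 15 of the 21 were below 0 and 1 above, against 16.5% and 14.5% of all genes in that fit.

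Of 23 A-kinase anchor and protein kinase A genes, 1 had a difference above 0 and 6 below it (30.4%, against 18.0% of all genes), all with shAKAP2 alone moving. PRKAR1A, a regulatory subunit of the kinase, stood at 383, 365, 328 and 362 CPM without and 344, 363, 359 and 382 CPM with doxycycline in shScramble and at 402, 416, 414 and 456 CPM without and 269.6, 254, 258 and 294 CPM with doxycycline in shAKAP2. Induced shAKAP2 was below the other 12 libraries, and the difference was -0.66 (SE 0.09, adjusted p = 3.51e-05). AKAP9, another anchoring protein, differed by -1.23 (SE 0.18, adjusted p = 7.31e-05). PRKAR2A, PRKACA and PRKACB, also kinase subunits, were below 0 and AKAP8L above it.

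Matrix genes were called mostly below 0. Of 35 matrix proteases and inhibitors, 5 were above 0 and 12 below it (48.6%, against 18.0% of all genes), with a median of -0.449, and 14 of the 17 moved in shAKAP2 alone. PLAUR, the urokinase receptor, was above 0: it stood at 54.0, 55.2, 62.5 and 59.3 CPM without and 57.4, 66.2, 77.4 and 70.6 CPM with doxycycline in shScramble and 60.1, 63.3, 61.5 and 53.6 CPM without and 139, 148, 144 and 121 CPM with doxycycline in shAKAP2, where the induced libraries were the highest of all, a difference of 0.98 (SE 0.13, adjusted p = 1.21e-05). PLAT, tissue plasminogen activator, rose in shScramble and fell in shAKAP2 (-1.58, SE 0.16, adjusted p = 7.34e-07). ADAMTS12, a secreted metalloprotease, fell in shAKAP2 (-1.03, SE 0.11, adjusted p = 7.44e-07).

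Of 42 extracellular matrix genes, 2 were above 0, the collagen IV chains COL4A1 and COL4A2, and 18 below it (47.6% in all, against 18.0% of all genes). The median difference was -0.476, beside median effects of -0.154 in shAKAP2 and 0.292 in shScramble. Of those called, 14 moved in shAKAP2 alone, 1 in shScramble alone, 1 in both lines in opposite directions and 4 in neither. TNC, the matrix glycoprotein tenascin C, stood at 24.6, 23.0, 20.1 and 21.1 CPM without and 19.2, 20.8, 22.5 and 25.8 CPM with doxycycline in shScramble and at 43.6, 42.1, 42.3 and 42.8 CPM without and 12.8, 7.15, 7.52 and 7.91 CPM with doxycycline in shAKAP2. Uninduced shAKAP2 was the highest group and induced shAKAP2 the lowest, and the difference was -2.27 (SE 0.20, adjusted p = 6.38e-08). MATN2, matrilin 2, moved in both lines in opposite directions (-1.35, SE 0.17, adjusted p = 1.02e-05). DCN, the proteoglycan decorin, had counts in 1 of 4 induced shAKAP2 libraries only, and at most 1.16 CPM in any library, so that its fitted difference is no measure of size.

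Fibroblast markers, a check for other cells, gave 0 above and 6 below 0 of 10 tested, where 18.0% of all genes were called. Their summed level was 985 to 1383 CPM in uninduced and 939 to 1853 CPM in induced shScramble, and 605 to 706 CPM in uninduced and 293 to 355 CPM in induced shAKAP2. COL1A2, a collagen I chain, stood at 27.2, 20.5, 11.1 and 12.01 CPM without and 41.2, 32.3, 24.1 and 30.02 CPM with doxycycline in shScramble and 8.21, 12.3, 14.0 and 12.04 CPM without and 5.35, 5.28, 5.56 and 5.67 CPM with doxycycline in shAKAP2, a difference of -1.93 (SE 0.36, adjusted p = 0.0012). The list includes PDGFRB and PI16, described above, and FAP, POSTN, THY1, DPT and MFAP5 had too few counts to be tested. COL1A2, PDGFRB and PI16 were a small part of the summed level, most of which came from members not described here. The part of such cells in the matrix results was not tested. Luminal epithelial markers gave no call among 12 by edgeR, DESeq2 or limma-voom, and 0 of the 12 had an unadjusted p under 0.05 by edgeR. Of 16 mesenchymal markers tested 1 was above and 5 below 0 (37.5%), among them ZEB1, a repressor of epithelial genes (-0.64, SE 0.09, adjusted p = 3.17e-05).

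Of 28 genes tied to the spread of MDA-MB-231 cells, 2 were above 0 and 11 below (46.4%, against 18.0% of all genes), with a median of -0.812 and 10 moving in shAKAP2 alone. Beside KISS1, TNC and MMP1, CXCR4, the chemokine receptor for CXCL12, fell in shAKAP2 from 4.17, 2.73, 3.27 and 4.12 to 1.03, 1.17, 0.789 and 0.879 CPM, while shScramble was at 10.6 to 15.3 CPM in all 8 libraries. Its difference was -1.69 (SE 0.24, adjusted p = 5.02e-05).

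Of 21 ERK output genes, 1 was above 0 and 6 below it (33.3%, against 18.0% of all genes), each with shAKAP2 alone moving: EPHA4, an ephrin receptor, differed by -1.49 (SE 0.23, adjusted p = 0.000111), PHLDA1 by -0.55 (SE 0.09, adjusted p = 0.000115) and ETV4, an ETS factor and the member above 0, by 0.54 (SE 0.10, adjusted p = 0.000565). Of 23 YAP/TAZ targets, 3 were above and 3 below 0 (26.1%) with a median of -0.031. Of those called, 4 moved in shAKAP2 alone and 2 in both lines in the same direction. The members of smallest p, named here, were all below 0. AMOTL1, an angiomotin that binds YAP, fell in shAKAP2 (-1.26, SE 0.15, adjusted p = 5.41e-06), as did CAV1, the coat protein of caveolae (-0.73, SE 0.10, adjusted p = 1.88e-05), and CRIM1 (-0.75, SE 0.13, adjusted p = 0.000304). Of 26 TGF-beta response genes, 2 were above and 7 below 0 (34.6%). TGFBR3, betaglycan, stood at 25.5, 26.0, 26.9 and 23.1 CPM without and 33.4, 41.8, 49.4 and 41.7 CPM with doxycycline in shScramble and 30.2, 28.5, 29.1 and 33.9 CPM without and 11.9, 9.79, 12.1 and 11.9 CPM with doxycycline in shAKAP2. The 4 induced shAKAP2 libraries were the lowest, and the highest 3 libraries were of induced shScramble, a difference of -2.13 (SE 0.15, adjusted p = 4.5e-09). LTBP1, which tethers latent TGF-beta, fell in shAKAP2 (-1.20, SE 0.19, adjusted p = 0.000114). Of 32 NF-kB response genes, 1 was above and 2 below 0 (9.38%), namely CD83 (0.79, SE 0.17, adjusted p = 0.0031), IER3 (-0.63, SE 0.13, adjusted p = 0.0013) and TNF. IER3 shares 26.5% of its exonic bases with a gene on the other strand.

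Of 32 axon guidance genes, 1 was above 0, SEMA7A, and 11 below it (37.5%, against 18.0% of all genes). The median difference was -0.300, beside median effects of -0.178 in shAKAP2 and 0.146 in shScramble. EFNB2, the membrane ligand ephrin B2, stood at 109.5, 107, 108 and 114 CPM without and 109, 113, 130.0 and 126 CPM with doxycycline in shScramble. The shAKAP2 libraries stood at 128, 126, 123 and 118 CPM without and 45.5, 39.5, 42.7 and 44.3 CPM with doxycycline. Only the induced shAKAP2 libraries were low, and the difference was -1.65 (SE 0.10, adjusted p = 2.25e-10). NRP2, a semaphorin and VEGF coreceptor, differed by -2.46 (SE 0.17, adjusted p = 4.1e-09). EFNB2 shares 26.2% of its exonic bases with a gene on the other strand.

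The called interferon response genes were spread over both lines. Of 49 tested, none was above 0 and 16 were below it (32.7%, against 18.0% of all genes), with a median difference of -0.450 made of -0.119 in shAKAP2 and 0.246 in shScramble. Only 5 of the 16 moved in shAKAP2 alone, 1 in shScramble alone, 3 in both in opposite directions and 7 in neither. DDX60, a helicase of the antiviral response, stood at 34.6, 34.3, 31.7 and 35.5 CPM without and 64.0, 61.5, 58.9 and 53.4 CPM with doxycycline in shScramble. In shAKAP2 it stood at 39.4, 36.9, 43.3 and 39.1 CPM without and 23.8, 25.6, 25.9 and 23.2 CPM with doxycycline. All 4 induced shScramble libraries were above, and all 4 induced shAKAP2 libraries below, the 8 uninduced ones. The difference was -1.49 (SE 0.11, adjusted p = 5.43e-09), with effects of 0.80 (SE 0.08, adjusted p = 2.49e-06) and -0.69 (SE 0.08, adjusted p = 1.04e-06). DDX58, the RNA sensor RIG-I (-0.94, SE 0.10, adjusted p = 9.19e-07), and IFIT3 (-0.84, SE 0.10, adjusted p = 8.17e-06) moved in the same opposed way. Without both shScramble replicate 1 libraries 22 of the 49 were below 0 (16.5% of all genes in that fit), 9 of them with both lines moving in opposite directions.

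Of 14 MHC class II presentation genes tested, none was above 0 and 4 were below it (28.6%, against 18.0% of all genes), all with shAKAP2 alone moving. They were CIITA, HLA-DRA, HLA-DMB and RFX5, and HLA-DRA was not called by limma-voom. Over the 14 the median difference of -1.308 was made of -1.408 in shAKAP2 and -0.034 in shScramble. CIITA, the transactivator of class II genes, stood at 16.7, 8.89, 5.97 and 7.58 CPM without and 14.0, 7.85, 8.26 and 10.7 CPM with doxycycline in shScramble and at 6.24, 6.84, 6.70 and 6.93 CPM without and 1.44, 1.14, 1.62 and 2.20 CPM with doxycycline in shAKAP2. Replicate 1 was the highest library of both shScramble groups, and the induced shAKAP2 libraries were the lowest of all. The difference was -2.11 (SE 0.39, adjusted p = 0.000773). RFX5, which binds class II promoters, differed by -0.46 (SE 0.09, adjusted p = 0.0011). Without both shScramble replicate 1 libraries 10 of the 14 were below 0, against 16.5% of all genes in that fit.

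Of 26 cholesterol synthesis genes 9 were above 0 and none below (34.6%, against 18.0% of all genes), all with shAKAP2 alone moving, and the median difference was 0.667. SC5D, a sterol desaturase, stood at 104, 86.4, 79.7 and 85.1 CPM without and 120.5, 86.7, 69.8 and 70.1 CPM with doxycycline in shScramble and at 74.4, 74.9, 80.6 and 88.5 CPM without and 147, 148, 162 and 151 CPM with doxycycline in shAKAP2. The 4 induced shAKAP2 libraries were above the other 12, and replicate 1 was the highest in both shScramble groups. SC5D differed by 0.97 (SE 0.19, adjusted p = 0.0015) and NSDHL, a sterol dehydrogenase, by 0.70 (SE 0.14, adjusted p = 0.0013). Without both shScramble replicate 1 libraries 17 of the 26 were above 0, against 14.5% of all genes in that fit.

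Of 50 cytosolic ribosomal protein genes 28 were above 0 and 1 below (58.0%, against 18.0% of all genes), with a median difference of 0.291 made of 0.201 in shAKAP2 and -0.099 in shScramble. These were small changes in abundant transcripts. RPL23 stood at 623, 605, 673 and 629.9 CPM without and 616, 593, 577 and 569 CPM with doxycycline in shScramble and 609, 619, 609 and 550.2 CPM without and 734, 719, 735 and 719.7 CPM with doxycycline in shAKAP2. Induced shAKAP2 was the highest group without overlap, and the difference was 0.39 (SE 0.08, adjusted p = 0.0014). RPL22 (0.35, SE 0.07, adjusted p = 0.0014) and RPL3 (0.40, SE 0.09, adjusted p = 0.0028) were alike in size. The member below 0 was RPS7 (-0.46, SE 0.13, adjusted p = 0.02), named after its values were seen. Of the 29, 23 moved in shAKAP2 alone and 6 in neither. Without both shScramble replicate 1 libraries 45 were above 0 (14.5% of all genes in that fit), and 21 of the 46 called moved in both lines in opposite directions. Ribosomal protein genes have many processed copies in the genome, so their counts are uncertain.

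Of 13 mitochondrially encoded transcripts 2 were below 0 (15.4%, against 18.0% of all genes), MT-ND6 (-0.87, SE 0.24, adjusted p = 0.022) and MT-ND5 (-0.80, SE 0.24, adjusted p = 0.03), both subunits of complex I. Both fell in shAKAP2 alone, and both lost the call when all genes with a count were tested (adjusted p = 0.0734 and 0.0942). MT-ND5 also lost it in 8 of 16 fits that leave out 1 library. Of 41 nuclear-encoded genes of the respiratory chain 3 were above 0 (7.32%): SDHD, a subunit of complex II (0.53, SE 0.10, adjusted p = 0.0011), UQCRH (0.30, SE 0.10, adjusted p = 0.036) and NDUFA5 (0.33, SE 0.11, adjusted p = 0.043). Single libraries ended the calls of UQCRH in 12 fits and of NDUFA5 in 11, and without both shScramble replicate 1 libraries 22 of the 41 were above 0, against 14.5% of all genes in that fit.

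Of 38 genes of G1/S and DNA replication 4 were above and 2 below 0 (15.8%, against 18.0% of all genes), with UHRF1, which maintains DNA methylation, below 0 (-1.23, SE 0.25, adjusted p = 0.0024) and the helicase subunit MCM6 (0.32, SE 0.10, adjusted p = 0.026) above it. MCM6 lost the call in 5 fits without 1 library. Of 40 mitotic genes 2 were above 0 and none below, a smaller share than the 18.0% of all genes. The 2 were AURKB (0.67, SE 0.17, adjusted p = 0.0082), a kinase of chromosome alignment, and MAD2L1 (0.52, SE 0.13, adjusted p = 0.0058), of the mitotic checkpoint. When both shScramble replicate 1 libraries were left out, 14 G1/S genes were above and 4 below 0, and 16 mitotic genes above and 3 below, where 31.0% of all genes were called. Of 12 replication-dependent histone genes, whose main transcripts lack a poly(A) tail, 4 were above 0 (33.3%). HIST1H1C, a linker histone, stood at 37.4, 52.2, 53.8 and 51.3 CPM without and 43.7, 50.3, 49.1 and 46.5 CPM with doxycycline in shScramble and 62.8, 65.6, 66.2 and 59.9 CPM without and 127, 138, 135 and 129 CPM with doxycycline in shAKAP2, where the induced libraries were the highest, a difference of 1.09 (SE 0.13, adjusted p = 3.88e-06). HIST1H2BK (0.85, SE 0.09, adjusted p = 6.62e-07) and HIST1H2BD (0.78, SE 0.21, adjusted p = 0.012) also rose in shAKAP2 alone.

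Stress and hypoxia genes were called about as often as all genes tested. Of 35 genes of the integrated stress and unfolded protein responses 4 were above and 2 below 0 (17.1%, against 18.0% of all genes). EDEM1, which helps clear misfolded proteins, stood at 148, 121, 101 and 116 CPM without and 133, 113, 118 and 121 CPM with doxycycline in shScramble and 124, 116, 117 and 120.4 CPM without and 51.3, 53.3, 49.5 and 54.0 CPM with doxycycline in shAKAP2, so that only the induced shAKAP2 libraries were low, a difference of -1.20 (SE 0.12, adjusted p = 7.51e-07). PSAT1, of serine synthesis, fell in shAKAP2 (-1.20, SE 0.21, adjusted p = 0.000848), and SLC7A11, the cystine transporter, differed above 0 with neither line called (1.01, SE 0.24, adjusted p = 0.0087). Of 36 hypoxia and glycolysis genes 2 were above and 6 below 0 (22.2%): ADM, the peptide adrenomedullin, rose in shAKAP2 from 29.9, 27.7, 28.6 and 24.6 to 64.8, 65.5, 68.5 and 59.9 CPM against 27.6 to 33.0 CPM in shScramble (1.27, SE 0.11, adjusted p = 7.59e-08), while HK2 (-0.62, SE 0.13, adjusted p = 0.0023) and ENO2 (-0.84, SE 0.19, adjusted p = 0.0039), enzymes of glycolysis, fell there.

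Counts over all genes rose when both shScramble replicate 1 libraries were left out, to 14.5% above and 16.5% below 0 (31.0% in all), and the counts of most lists rose with them. The lists were counted in that fit after seeing the data. Genes below 0 then numbered 13 of 38 for focal adhesions with 3 above 0, 16 of 35 for matrix proteases with 6 above, 24 of 42 for the matrix with 2 above, and 15 of 28 for metastasis genes with 4 above. They numbered 16 of 28 for chemokines with 2 above, 14 of 32 for NF-kB with 2 above, 10 of 21 for ERK with 1 above, 8 of 23 for YAP/TAZ with 4 above, 9 of 26 for TGF-beta with 2 above, 17 of 32 for axon guidance with 1 above and 18 of 36 for hypoxia with 3 above. Of 35 stress response genes 6 were above and 4 below 0, and of 23 A-kinase anchor and kinase genes 1 was above and 9 below. The 17 blood cell markers gave 0 above and 11 below, the 10 fibroblast markers 0 above and 7 below, and the 16 mesenchymal markers 2 above and 6 below. The 12 luminal markers then gave 2 above and 1 below, and the counts for mitochondrially encoded transcripts and histones were as before.

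**Figure D4:**
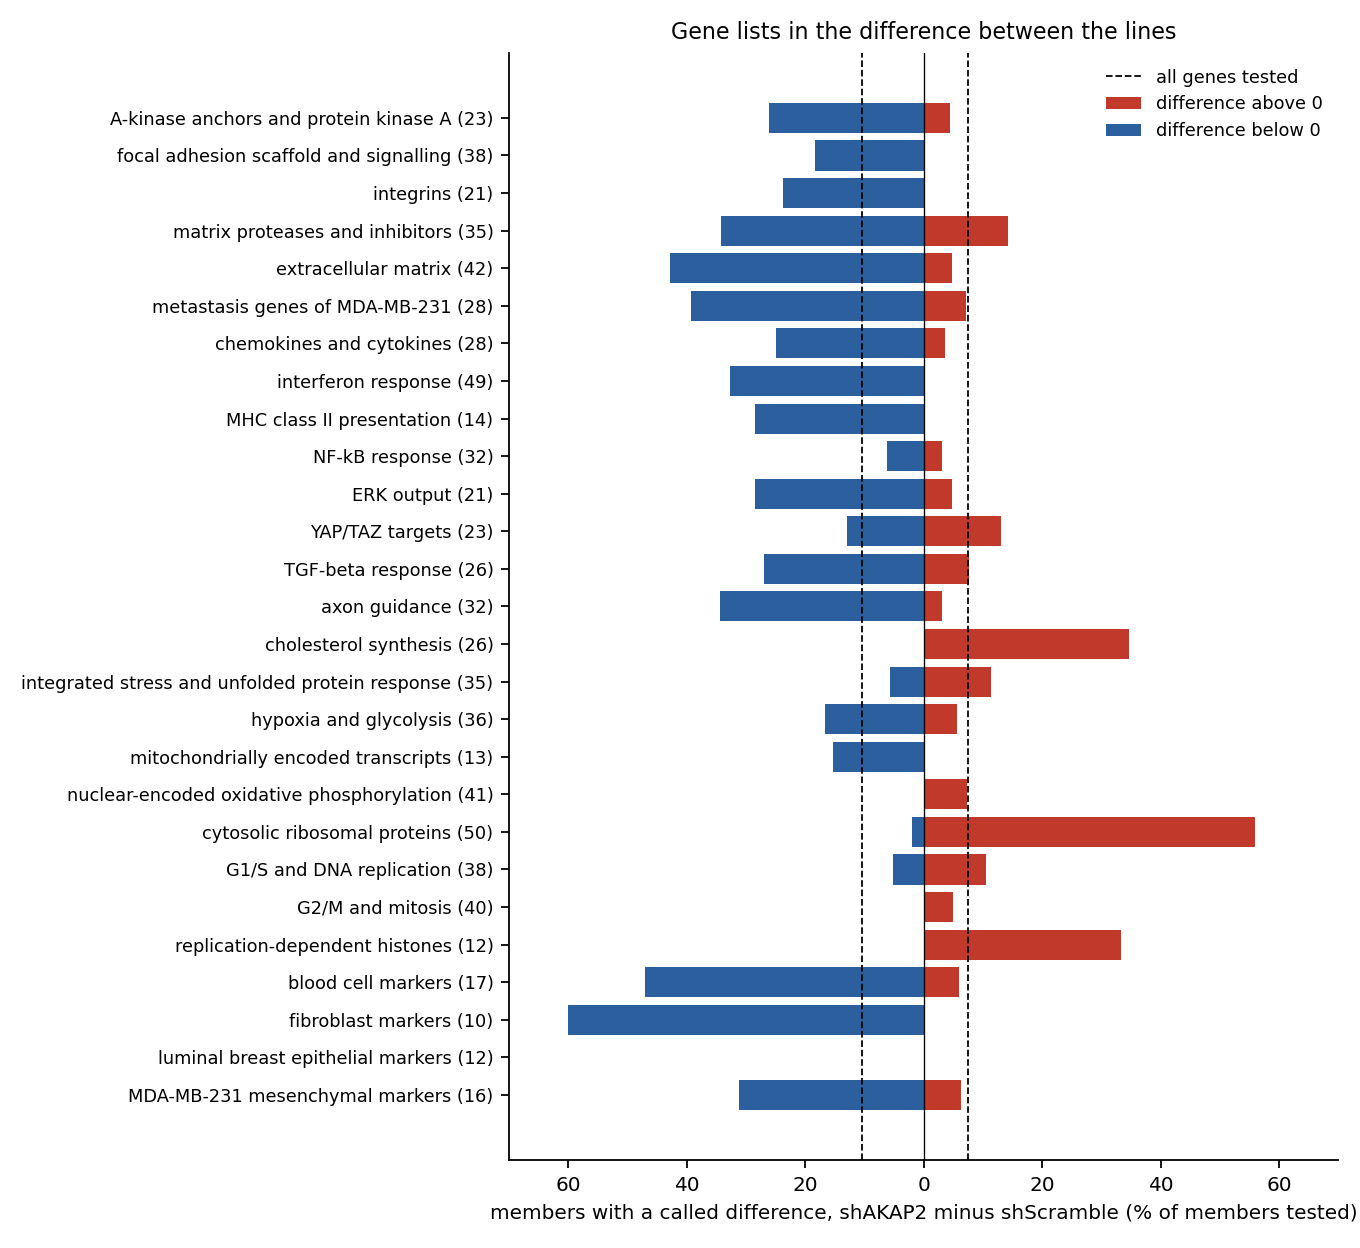
Share of the tested members of each gene list (number tested in brackets) with a called line difference, in percent, above 0 in red to the right and below 0 in blue to the left. Dashed lines mark the shares over all genes tested, 7.53% above and 10.5% below 0. Cytosolic ribosomal proteins reach furthest to the right and fibroblast markers furthest to the left.

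Some shAKAP2 falls carry a sequence feature that earlier results on these data had found in that line's doxycycline effect. Its share here is therefore a description. The 7-letter word GAACACA was searched on the sense strand of annotated 3′ untranslated regions (UTRs). It stands in full in the following sites, shown with 10 bases on each side in GRCh38 and the word in capitals. Only genes that hold it are shown, and not every site is printed. MAP2K6, CAPN11 and PRELP, which also fell in shAKAP2 alone, held none. The sites of AKAP2, the hairpin's target, of adhesion, guidance and protease genes and the zinc finger gene ZNF33B that fell in shAKAP2 alone, of PUDP, which moved in both lines, of SLITRK5 and EREG, which fell in both, and of PDGFRB, which moved in shScramble alone, are given.
AKAP2 (chr9:110169248-110169274, plus strand): cagtttatgaGAACACAttttcacagt
VCL (chr10:74118936-74118962, plus strand): gccatcccatGAACACActgtgtcctg
EFNB2 (chr13:106491499-106491525, minus strand): taggtatataGAACACAagggatataa
EFNB2 (chr13:106492836-106492862, minus strand): cggccttggtGAACACAcacgctccct
NTN4 (chr12:95657928-95657954, minus strand): tacaaaacatGAACACAgtgccatatg
MMP1 (chr11:102790013-102790039, minus strand): agcagctcaaGAACACAtgtgcagtca
ZNF33B (chr10:42590149-42590175, minus strand): tatttccagtGAACACAgatgcagaaa
PUDP (chrX:7049513-7049539, minus strand): ttgttagtatGAACACAactgtaacat
SLITRK5 (chr13:87678319-87678345, plus strand): cacacacagtGAACACAtttgattaat
EREG (chr4:74386645-74386671, plus strand): aaatatgtaaGAACACAttttaaatac
PDGFRB (chr5:150114582-150114608, minus strand): caagtctcaaGAACACAgctgcacagg

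Of 12828 genes tested with an annotated 3′ UTR, 14.14% held the word. Among genes below 0 where shAKAP2 alone moved it was 529 of 1356, or 39.01% (95% Wilson interval 36.45% to 41.64%). Genes without a called difference held it in 11.47% (10.87% to 12.11%) and genes above 0 where shAKAP2 alone moved in 6.09% (4.74% to 7.79%). Where shScramble alone moved, 7 of 32 genes below 0 (21.88%, 11.02% to 38.75%) and 6 of 32 above 0 (18.75%, 8.89% to 35.31%) held it. Where both moved in opposite directions it was in 8 of 29 genes below 0 and 0 of 19 above 0 (up to 16.82%). Intervals cover counting error only.

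The effects were also set against the number of copies. Genes with 0, 1, 2 and 3 or more copies had median shAKAP2 effects of 0.031, -0.232, -0.282 and -0.339, and median shScramble effects of 0.001, 0.018, 0.009 and 0.077. The share of genes below 0 was 8.81%, 30.46%, 38.36% and 40.39%. Length moves with this feature: the median longest 3′ UTR was 1203 bases with 0 copies and 2749 with 1, and 2087 bases in genes below 0 where shAKAP2 alone moved against 1309 in genes not called. Among genes whose longest 3′ UTR was 1000 to 2000 bases, a range chosen after seeing the data, the word stood in 94 of 299 genes (31.44%) below 0 where shAKAP2 alone moved, in 228 of 2463 (9.26%) not called and in 11 of 259 (4.25%) above 0 where shAKAP2 alone moved.

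**Figure D5:**
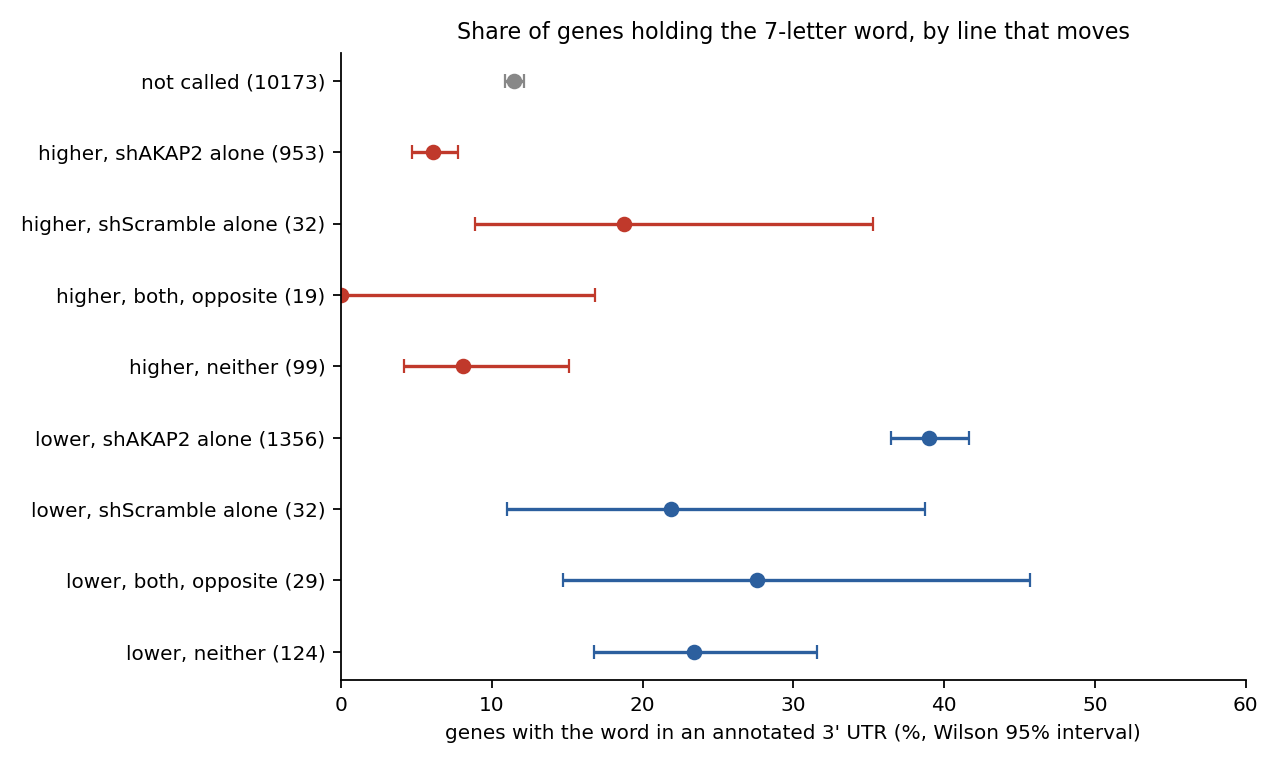
Share of genes that hold GAACACA in an annotated 3′ UTR, in percent with 95% Wilson intervals, by direction of the line difference and the line that moves (number of genes in brackets; the 11 genes that moved in both lines in the same direction are not shown). The point for genes below 0 where shAKAP2 alone moved, at 39.01%, stands to the right of genes not called, at 11.47%, and the intervals where shScramble alone moved are wide.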

How the data were processed

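Polyadenylated RNA was sequenced in 16 libraries, 4 for each line and treatment. Raw counts for 57500 genes, with no normalization, are what the authors deposited. Build GRCh38, Subread 1.5.2 with featureCounts, and STAR 2.5.2b are named, per the submitters' processing notes. The sources used here do not give the annotation release or the use of strand in counting, so genes that overlap, also on opposite strands, and close paralogs are uncertain.

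Counts were fitted with edgeR 4.0.16 in R 4.3.3: filterByExpr kept 15566 genes (99.93% of counts), TMM scaled the libraries, and a robust quasi-likelihood model with a mean per group used all 16 libraries (12 residual degrees of freedom, biological coefficient of variation 14.4%). Adjusted p-values come from that edgeR test after Benjamini-Hochberg adjustment over the 15566 genes. SE is derived from the F statistic. CPM are TMM-scaled. A line was said to move where its own doxycycline contrast passed the same threshold. The fit was tested on simulated data.

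No pair of libraries agreed within sampling noise. Replicate numbers are shared between groups, but were not taken as pairs, since not every pair of same-numbered libraries deviated together. Positions and 3′ UTRs come from GENCODE 29 on GRCh38, in which 15516 of the tested identifiers were found.

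The comparison, the 27 gene lists (written from general knowledge) and the rules were chosen with earlier results of these data known. Named by rule were AKAP2 and then, among called genes (mean 1 CPM or more) and by size of the line difference, 8 in each direction where shAKAP2 alone moved, 5 where shScramble alone moved, 4 where both moved in opposite and 3 in the same direction, each without overlap in the lines that moved. The rule added the 2 of smallest p in each direction where neither line passed, and from each list up to 3 called members of smallest p; a few of these are not reported here. Alternatives were other scalings, filters, tests, replicate blocks, rules for the line that moves and words, and fits without libraries, including DESeq2 1.42.0 and limma 3.58.1.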

Additional observations from a re-analysis of the deposited data

Results flagged for a closer look

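The doxycycline effects of the lines differed by the test of the difference itself in 1172 genes above 0 and 1630 below. That split depends on scaling, with 1424 and 1474 under upper-quartile scaling. Among the named genes that moved in opposite directions the log2 line difference was 2.058 for PRKAR2A-AS1, 1.642 for H2AFX, 1.411 for EIF4EBP2, 1.344 for LMLN, -4.565 for MMP3, -2.97 for PUDP, -2.771 for CST7 and -2.218 for PI16.

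Of 180 groups of 4 libraries, 11 held a library whose gap to the nearest other relative to the group's range exceeded Dixon's 95% critical value. Chance flags about 1 in 20 groups. In shScramble these were replicate 1 for HLA-DRA with doxycycline (185.1 CPM), MAOB without (4.054 CPM), PDGFRB with (18.55 CPM), MMP3 with (0.8965 CPM) and TMEM245 without doxycycline (252.0 CPM), replicate 4 without doxycycline for PDE1C (18.2 CPM) and replicate 3 without doxycycline for SAMD9L (40.03 CPM). In shAKAP2 they were replicate 3 without doxycycline for KISS1 (1.903 CPM) and PI16 (3.082 CPM), replicate 1 without doxycycline for MAOB (3.393 CPM) and replicate 3 with doxycycline for MAOB (0.639 CPM). Of the 7 in shScramble, 5 were replicate 1 libraries, which stand apart over all genes.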

How the results depend on the processing

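Every alternative that was run kept the direction of every call it shared with the main result, and none of the 111 named genes changed sign. Calls above 0 ranged from 861 to 1664 and below 0 from 1391 to 2026 with 1 library left out. In the same fits 1947 to 2978 genes moved in shAKAP2 alone, 39 to 141 in shScramble alone, 35 to 152 in both and 164 to 490 in neither, with each highest count without a shScramble replicate 1 library. Without both shScramble replicate 1 libraries the counts were 2261 above 0, 2565 below 0, 288 in shScramble alone, 421 in both and 480 in neither. Without replicate 1 of all 4 groups they were 2285, 2494, 347, 508 and 489. DESeq2 placed 116 genes in shScramble alone and 93 in both lines. Judged by the size of the effects, 142 moved in shScramble alone and 477 in both, and with the lines' own threshold at 0.1 neither moved in 114. The cause of these changes was not tested. The DESeq2-type scaling moved the median difference of all genes by 0.003 and upper-quartile scaling by 0.0386. With upper-quartile scaling 1424 genes were above 0 and 1474 below, so the excess of calls below 0 depends on scaling.

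With the replicate number within each line as a replicate block there were 1820 calls above 0 and 2253 below (4073 in place of 2802). Of these, 120 were in shScramble alone and 165 in both. Deviations of same-numbered libraries correlated at 0.004 to 0.107 in shAKAP2 and 0.042 to 0.545 in shScramble, with 1 of 4 pairs over 0.1 in shAKAP2 and 3 of 4 in shScramble. Of 8 libraries in each line, 5 in shAKAP2 and 4 in shScramble correlated best with their own number. As not every pair exceeded 0.1, the numbers were not taken as pairs, which leaves shared handling of some shScramble pairs untested. A block over both lines kept all 111 named calls.

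PDE1C, MCM6, MT-ND5, MT-ND6, UQCRH and NDUFA5 lost the call with all genes that had a count in the test. For the word with A after it the shares were 12.91% of genes below 0 and 1.36% of genes above 0 where shAKAP2 alone moved and 2.57% of genes not called. In the longest 3′ UTR alone, 36.36% of genes below 0 where shAKAP2 alone moved and 10.26% of genes not called held the 7-letter word. The number of libraries per group and the counts of genes near 1 CPM limit what could be detected.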

Other observations

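Further genes fell in shAKAP2 alone, and the following were chosen after their values were seen. ATL3, an atlastin that fuses tubules of the endoplasmic reticulum, stood at 384, 376, 357 and 393 CPM without and 369, 391, 393 and 407 CPM with doxycycline in shScramble and at 426, 434, 423 and 456 CPM without and 117, 115, 115 and 124 CPM with doxycycline in shAKAP2, a line difference of -1.94 (SE 0.08, adjusted p = 1.69e-12). TFG (-1.68, SE 0.09, adjusted p = 7.19e-11) and SEC23A, a coat subunit of vesicles that leave the endoplasmic reticulum (-1.61, SE 0.09, adjusted p = 2.25e-10), were low in the same 4 libraries. ACO1, the cytosolic aconitase that also binds iron-responsive RNA elements, stood at 225, 193, 169 and 185 CPM without and 205, 186, 188 and 199 CPM with doxycycline in shScramble and 180.3, 179, 181 and 181 CPM without and 42.1, 43.4, 37.6 and 43.1 CPM with doxycycline in shAKAP2, a difference of -2.13 (SE 0.11, adjusted p = 4.68e-11). IL6ST, the shared receptor chain of the interleukin 6 family, differed by -1.59 (SE 0.09, adjusted p = 2e-10) and RAB7A, a GTPase of late endosomes, by -1.27 (SE 0.08, adjusted p = 1.07e-09).

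The paralogs MORF4L1 and MORF4L2, which encode chromatin proteins and were also chosen after their values were seen, did not share a pattern. MORF4L1 stood at 396, 389.9, 389.8 and 410.1 CPM without and 231, 224, 205 and 207 CPM with doxycycline in shScramble and at 376, 379, 391 and 389 CPM without and 196, 217, 221 and 212 CPM with doxycycline in shAKAP2, and fell in both lines, with log2 changes of -0.87 and -0.86, and had a line difference of 0.01 (SE 0.08, adjusted p = 0.95). MORF4L2 stood at 443, 482, 512 and 508 CPM without and 356, 359, 325 and 318 CPM with doxycycline in shScramble and at 280.1, 291, 286 and 282 CPM without and 344, 356, 353 and 339.8 CPM with doxycycline in shAKAP2: it fell in shScramble and rose in shAKAP2, a difference of 0.81 (SE 0.08, adjusted p = 8.48e-07). Counts of such paralogs are uncertain.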
